A study of Mus musculus with 33 samples.

Results

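Embryoid bodies (EBs) that lacked Uhrf1 (Uhrf1 KO) and wild-type (WT) ones were compared in their H3K4me3 after 3 weeks of differentiation, with 1 chromatin immunoprecipitation library for each genotype, 2 of the 33 samples of the series. The members were the enriched regions, called domains here, listed for these 2 libraries: 27350 in WT and 28789 in KO. A domain was shared when it overlapped a domain of the other genotype by at least 1 bp, and was otherwise WT-only or KO-only. The WT cells were E14 mouse embryonic stem cells and the KO cells were labelled as Uhrf1 KO E14 cells with no second KO line named, so line and genotype cannot be told apart. EBs, aggregates in which embryonic stem cells differentiate into derivatives of all germ layers, were grown from hanging drops and then in suspension, and were collected whole without sorting. In such bulk material fewer cells of a type and less mark per cell cannot be told apart. With 1 library per genotype no p-value was possible, and the 95% intervals below (by Wilson's method for shares and by Newcombe's for differences) cover counting error over domains or promoters only.

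Uhrf1 is a multi-domain nuclear protein that binds hemimethylated DNA and modified histone H3 and recruits Dnmt1 to keep DNA methylation through replication. H3K4me3 is the trimethylation of lysine 4 on histone H3, deposited by COMPASS complexes with catalytic subunits of the Setd1 and MLL families and found mainly at CpG-rich promoters of active or poised genes. Where H3K4me3 lies together with the Polycomb mark H3K27me3, as at many developmental genes in stem cells, the promoter is called bivalent. DNA methylation and H3K4me3 tend to exclude each other, and many germline genes are kept silent in somatic cells by methylated promoters.

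The starts of a few genes on which the results turn are printed first, because the promoters that differed between the genotypes were mostly poor in CpG. Each sequence comes from the mm9 genome (NCBIM37) and runs 5′ to 3′ on the strand of the gene from 280 bases before the annotated gene start to 20 bases from it, with CG dinucleotides in capitals. Ttn (chr2:76820585-76820884, minus strand), which encodes the sarcomere protein titin, Nkx2-5 (chr17:26978491-26978790, minus strand), a cardiac transcription factor, and Wnt2b (chr3:104764608-104764907, minus strand), a Wnt ligand, had a promoter domain in WT and none in KO. Hormad1 (chr3:95363319-95363618, plus strand) and Tex19.1 (chr11:121007177-121007476, plus strand), both germline genes, and Myh6 (chr14:55585745-55586044, minus strand), the cardiac alpha-myosin heavy chain, had one in KO and none in WT. Tpm1 (chr9:66897194-66897493, minus strand), which encodes a tropomyosin, was marked in both.
Ttn: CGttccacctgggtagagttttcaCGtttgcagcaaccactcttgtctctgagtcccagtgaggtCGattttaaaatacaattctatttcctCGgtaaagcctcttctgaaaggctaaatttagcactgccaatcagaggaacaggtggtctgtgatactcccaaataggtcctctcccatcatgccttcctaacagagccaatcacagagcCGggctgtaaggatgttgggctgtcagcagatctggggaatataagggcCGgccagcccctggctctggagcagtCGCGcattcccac
Nkx2-5: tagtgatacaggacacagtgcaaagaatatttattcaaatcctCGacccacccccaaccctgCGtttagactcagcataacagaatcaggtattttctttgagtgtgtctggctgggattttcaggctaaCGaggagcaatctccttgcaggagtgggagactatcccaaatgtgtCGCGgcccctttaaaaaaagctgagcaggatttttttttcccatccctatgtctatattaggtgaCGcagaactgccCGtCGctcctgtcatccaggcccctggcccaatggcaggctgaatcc
Wnt2b: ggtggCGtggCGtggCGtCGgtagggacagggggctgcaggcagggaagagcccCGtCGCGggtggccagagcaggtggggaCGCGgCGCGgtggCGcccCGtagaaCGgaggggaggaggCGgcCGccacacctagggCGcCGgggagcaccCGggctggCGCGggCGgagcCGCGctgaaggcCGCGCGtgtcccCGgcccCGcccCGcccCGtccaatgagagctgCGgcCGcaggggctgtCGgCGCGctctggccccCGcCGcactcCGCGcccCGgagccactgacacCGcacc
Hormad1: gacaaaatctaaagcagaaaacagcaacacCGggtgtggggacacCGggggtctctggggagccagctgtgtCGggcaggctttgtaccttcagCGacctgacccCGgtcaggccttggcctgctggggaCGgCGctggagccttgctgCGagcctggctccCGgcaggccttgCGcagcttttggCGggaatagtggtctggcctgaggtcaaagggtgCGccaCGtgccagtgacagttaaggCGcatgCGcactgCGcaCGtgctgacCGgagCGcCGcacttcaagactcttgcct
Tex19.1: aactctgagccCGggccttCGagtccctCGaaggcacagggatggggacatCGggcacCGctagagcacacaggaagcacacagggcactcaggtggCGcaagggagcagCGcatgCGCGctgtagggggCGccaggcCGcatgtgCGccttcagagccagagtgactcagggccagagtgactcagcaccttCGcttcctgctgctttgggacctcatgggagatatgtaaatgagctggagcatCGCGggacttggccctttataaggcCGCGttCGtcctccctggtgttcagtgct
Myh6: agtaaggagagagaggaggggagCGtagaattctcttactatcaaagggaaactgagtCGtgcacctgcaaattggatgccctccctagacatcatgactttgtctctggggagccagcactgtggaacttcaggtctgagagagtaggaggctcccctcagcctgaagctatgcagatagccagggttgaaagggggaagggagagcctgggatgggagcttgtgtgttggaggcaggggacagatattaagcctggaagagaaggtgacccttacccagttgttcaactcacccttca
Tpm1: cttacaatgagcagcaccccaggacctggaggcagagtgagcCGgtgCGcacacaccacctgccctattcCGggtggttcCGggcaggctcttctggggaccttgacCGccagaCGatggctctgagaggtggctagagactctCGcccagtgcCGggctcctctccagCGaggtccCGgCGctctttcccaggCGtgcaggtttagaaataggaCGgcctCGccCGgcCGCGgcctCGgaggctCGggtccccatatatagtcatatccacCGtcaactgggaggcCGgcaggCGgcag
The windows held 8 CG in Ttn, 8 in Nkx2-5, 42 in Wnt2b, 20 in Hormad1, 18 in Tex19.1, 2 in Myh6 and 22 in Tpm1, against a median of 10 over all 22367 protein-coding genes. At least 1 CG, which reads the same on both strands, was present in 94.4% of all windows.

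The domains found in only 1 genotype were short and weak. WT-only domains numbered 5647, which is 20.6% of the WT list (20.2 to 21.1), and held 5.63% of its base pairs. KO-only domains numbered 7125, which is 24.7% of the KO list (24.3 to 25.3), and held 7.09% of its base pairs. The median length was 1.2 kb in both of these classes and 5.2 kb in shared domains of either list. The lists also give a mean read count per 400 bp bin for each domain, ranked here within the domain's own list because its scaling to depth is not stated. The median rank was percentile 27.7 for WT-only domains (quartiles 13.4 and 48.9) and 30.3 for KO-only domains (15.0 and 51.8), against 57.4 and 58.0 for shared domains. Ranked by the score in column 6 of the lists, the medians were lower, at 17.1 and 19.3.

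Whether a domain was found in the other genotype followed its length closely. Of WT domains of a single bin, 31.5% were shared (29.4 to 33.8), and the KO share of 31.7% did not differ beyond these intervals (29.5 to 33.9). The share was 75.3% in WT and 72.3% in KO for domains over 1.6 and up to 3.2 kb, and 99.6% and 99.7% in the longest class. By read count it ran from 62.2% in the lowest of 5 equal groups to 97.9% in the highest in WT, and from 58.2% to 95.5% in KO. Broad and strongly marked H3K4me3 domains were thus rarely without a counterpart in the other genotype.

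**Figure D1:**
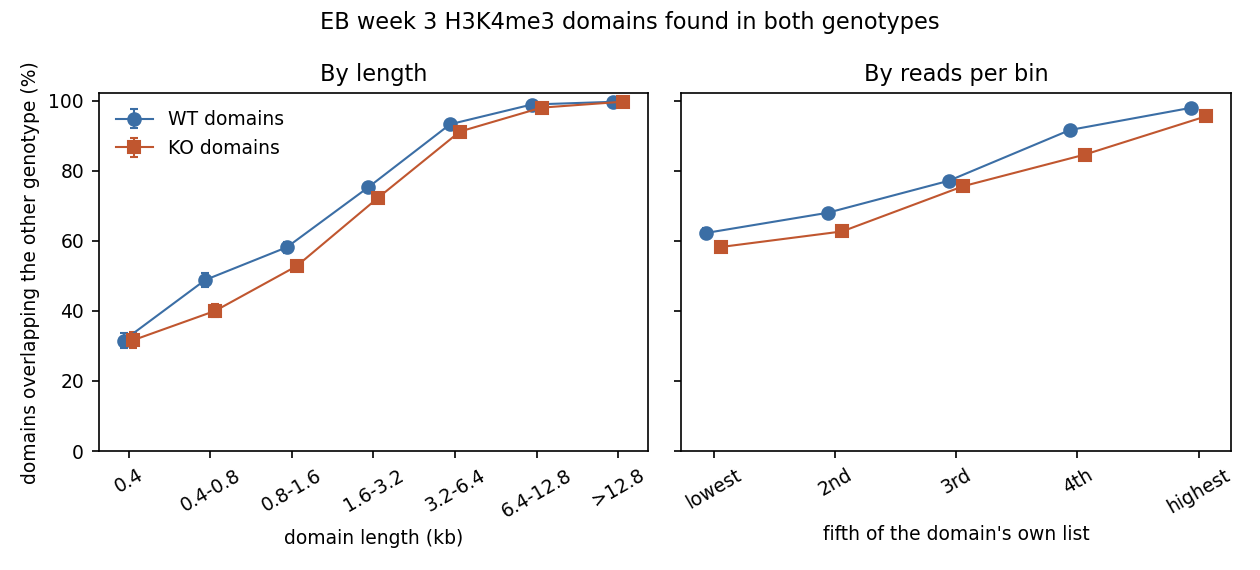
Share of EB week 3 H3K4me3 domains that overlap a domain of the other genotype (percent), by domain length in kb (left) and by 5 equal groups of mean reads per bin within each list (right), for WT (circles) and KO domains (squares), with Wilson 95% intervals as bars. Both lists rise from about 32% at 1 bin to over 99% in the longest class.

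WT-only and KO-only domains lay away from gene starts. A domain was placed at a promoter when it came within 2 kb of an annotated start of a protein-coding gene. That held for 13.3% of WT-only domains (12.4 to 14.2) and 10.2% of KO-only domains (9.48 to 10.9), against 59.9% and 60.0% of shared domains. Gene bodies held 42.2% of WT-only and 40.1% of KO-only domains, and 44.6% and 49.8% were intergenic. The gap to shared domains depended on length: up to 0.8 kb, 8.69% of WT-only and 10.4% of shared WT domains were at promoters, whereas over 3.2 and up to 6.4 kb the shares were 23.0% and 66.8%. In KO the same classes gave 7.56% and 11.6%, then 17.7% and 66.6%.

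**Figure D2:**
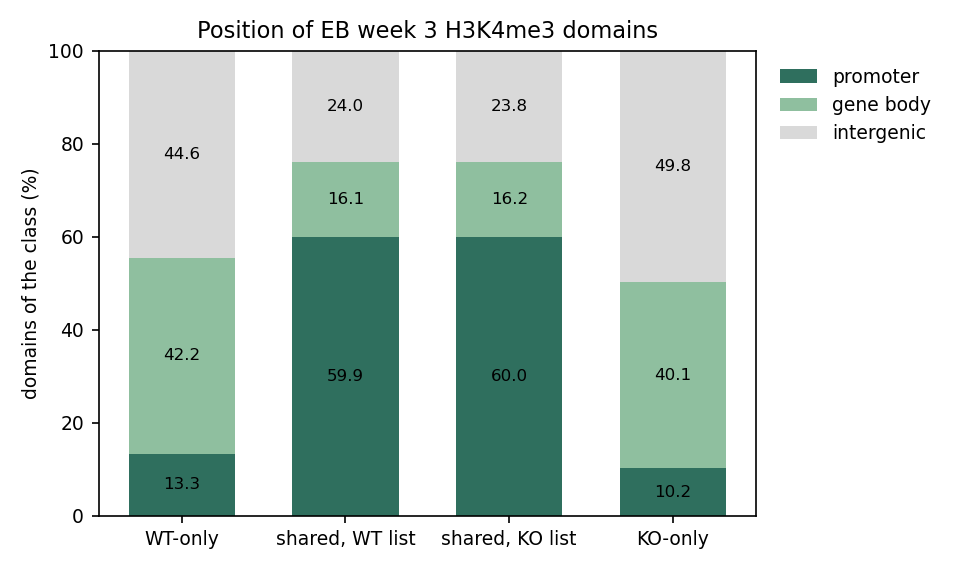
Share of domains (percent) at a promoter, in a gene body or intergenic, for WT-only, shared and KO-only EB week 3 H3K4me3 domains. Promoters take about 60% of shared domains and 13.3% and 10.2% of WT-only and KO-only domains.

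The sequence and the earlier history of the domains also differed between classes. CpG density had a median of 11.7 per kb in WT-only domains (quartiles 7.50 and 16.4), 14.2 in KO-only domains (9.06 and 20) and 17.9 in shared domains of both lists. Domains of WT embryonic stem cells had H3K4me3 at 15.1% of WT-only regions (14.2 to 16.0) and at 23.2% of KO-only regions (22.2 to 24.2). At week 2, 54.4% of WT-only regions were covered in WT and 34.4% in KO, and 41.6% of KO-only regions were covered in KO and 29.1% in WT. The week 2 libraries, which the classes did not use, thus showed more overlap in the genotype that held the domain at week 3, although the WT list of week 2 is also the longer one with 39898 domains against 32702. The share of regions touching H3K9me3 in WT embryonic stem cells was 33.1% for WT-only and 34.0% for KO-only domains against 23.8% and 23.7% for shared ones (differences 9.32 points, 7.97 to 10.7, and 10.2 points, 9.02 to 11.5). Windows of 10 kb enriched for Uhrf1 in WT embryonic stem cells were touched by 1.88% and 1.77% of WT-only and KO-only domains and by 1.382% and 1.403% of shared ones (differences 0.49 points, 0.13 to 0.91, and 0.37 points, 0.04 to 0.73).

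Chromosomes 8 and 11 stood apart from the other 18 compared. On chromosome 8, 60.5% of WT domains had a KO counterpart (58.4 to 62.6), against 78.2% to 89.0% on the others, and 841 of the 5647 WT-only domains lay there. On chromosome 11, 34.3% of KO domains had no WT counterpart (32.4 to 36.2), against 17.4% to 27.02%, and 800 of the 7125 KO-only domains lay there. The number of KO domains per WT domain was 0.823 on chromosome 8, 1.20 on chromosome 11 and 1.02 to 1.11 on the others. The ratio of chromosome 8 was also below the range of the others in stem cells (0.639, others 0.711 to 0.827). The same held at week 1 (0.739, others 0.895 to 1.13) and at week 2 (0.624, others 0.752 to 0.881). The ratio of chromosome 11 was above that range at week 1 (1.23) and week 2 (1.17) but within it in stem cells (0.765). Copy number was not measured, and its part in these differences was not tested. Without both chromosomes 80.6% of WT domains were shared and 24.1% of KO domains were KO-only.

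**Figure D3:**
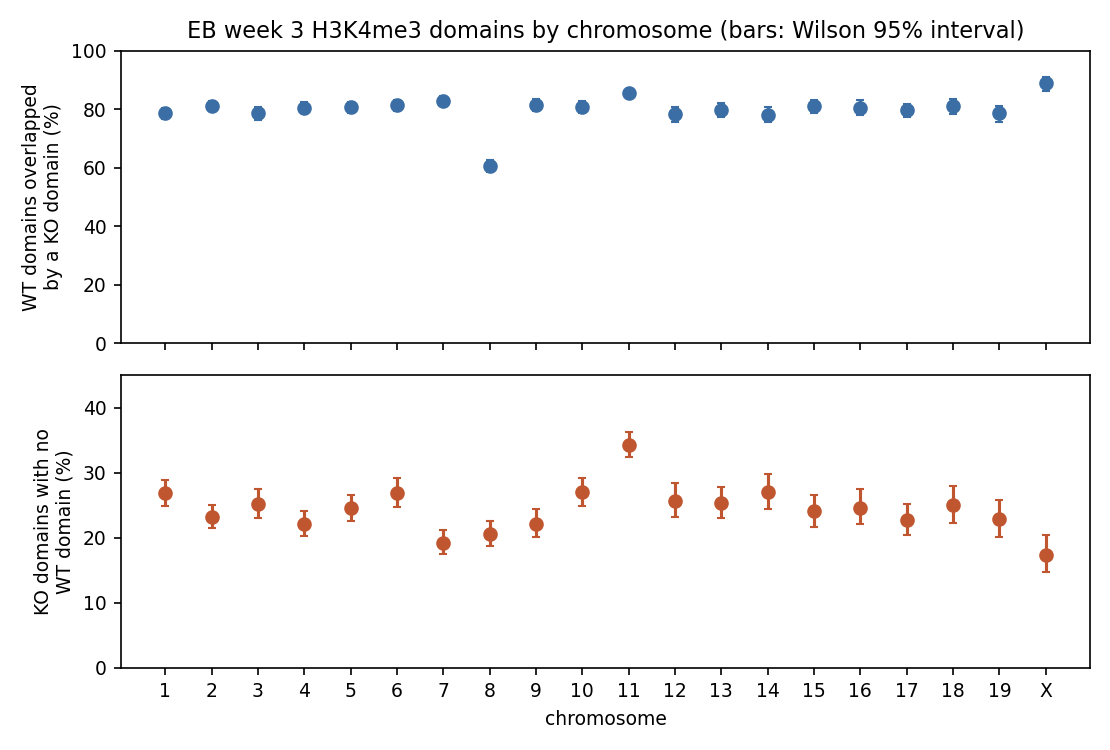
Share of WT domains overlapped by a KO domain (top, percent) and of KO domains with no WT domain (bottom, percent) by chromosome at EB week 3, with Wilson 95% intervals. Chromosome 8 is lowest in the upper plot at 60.5% and chromosome 11 highest in the lower at 34.3%.

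Shared domains had the same typical breadth in both genotypes. Overlapping domains were joined into 20780 clusters, and the log2 ratio of KO to WT base pairs had a median of 0 (quartiles -0.37 and 0.35). KO covered more base pairs in 43.5% of the clusters and fewer in 44.3%, and a difference of at least 2-fold was found in 1756 clusters longer in KO and 1888 longer in WT. Clusters at promoters were less spread, with 4.45% at least 2-fold longer in KO and 5.17% at least 2-fold shorter, against 14.8% and 15.3% away from promoters.

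The largest gains in covered length among promoter clusters, chosen by that length, were at Gpr31c and Tcp10b (chromosome 17, 13214001 to 13257200), with 6.4 kb in WT and 42.4 kb in KO, and at Atf6 and Dusp12 (chromosome 1, 172786001 to 172834000), with 16.4 and 48 kb. Clusters at Dcakd and Nmt1, at Mrpl45 and Npepps (both on chromosome 11) and at Gm14325 covered 22.8 to 25.2 kb more in KO. The largest losses were a cluster at 1700001F09Rik, Gm5799 and Gm8138 on chromosome 14 (137.6 kb in WT and 16.4 kb in KO), A530032D15Rik on chromosome 1 (88.8 and 10.8 kb) and Prl2c3 on chromosome 13 (171.6 and 123.6 kb). Sp100, Sp110 and Sp140 shared a cluster of 54.4 kb in WT and 10.4 kb in KO, and Gm16382 had 42.4 and 0.4 kb. Several of these loci hold families of near-identical copies, between which short reads cannot always be placed, so their lengths are uncertain. The same holds for the longest domains of a single genotype. The longest WT-only domain covered 30 kb in the body of Mup17 (chromosome 4, 61223201 to 61253200) at percentile 1.47 of read count, and the longest KO-only domain covered 47.6 kb between genes on chromosome 1 (87378001 to 87425600) at percentile 3.53. The next longest were 19.6 to 24 kb in WT, at or in Gm10634, Vmn2r-ps100, Gm15292 and 1 intergenic region, and 18.8 to 33.2 kb in KO, in or at Cyp3a41b, Gm4477 and 2 intergenic regions.

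Turning to genes, a promoter was marked when a domain came within 2 kb of any annotated start. Of 22367 protein-coding genes, 15222 were marked in WT and 15127 in KO. They were kept at 14689 genes and marked in WT but not in KO, called lost here, at 533, which is 3.50% of the WT-marked (3.22 to 3.81). They were marked in KO but not in WT, called gained, at 438 of 7145 WT-unmarked genes, which is 6.13% (5.60 to 6.71). Lost promoters had domains of median 2.4 kb in WT (percentile 22.6) and gained promoters of 2 kb in KO (percentile 29.1), against 8.8 and 9.2 kb at kept promoters. At lost promoters the nearest KO domain lay at a median of 14.4 kb, and 42.6% had one within 10 kb. For gained promoters the nearest WT domain lay at 15.4 kb and 37.9% had one within 10 kb. A lost or gained promoter could still lie on a shared domain, where the overlap with the other genotype was outside the 2 kb limit. The longest domain at a lost promoter was 162 kb, against at most 30 kb for WT-only domains. At a gained promoter it was 61.2 kb, against at most 47.6 kb for KO-only domains.

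The promoters that differed held fewer CG than kept ones, and the size of that gap depended on domain length. The window printed above had a median of 5 CG at lost (quartiles 3 and 9) and 5 at gained promoters (2 and 9), 17 at kept (9 and 26) and 2 at unmarked promoters (1 and 4). At matched domain length the gap was small for short domains, which most of these promoters had. Up to 1.6 kb, the median was 5 at 232 lost and 7 at 375 kept promoters, and 5 at 207 gained and 7 at 455 kept ones. Over 1.6 and up to 3.2 kb it was 6 at lost and 9 at kept promoters, and 7 at gained and 9 at kept ones. Over 3.2 and up to 6.4 kb it was 6 at lost and 14 at kept promoters, and 4 at gained and 14 at kept ones. Where the domain exceeded 6.4 kb, it was 4 at 89 lost and 19 at 9976 kept promoters, and 4 at 62 gained and 19 at 9852 kept ones. That longest class included lost and gained promoters on shared domains. The letters TATAAA on either strand were present in 14.8% of lost, 18.7% of gained, 7.94% of kept and 27.1% of unmarked windows, and in 14.1% of all. Among the windows printed above only that of Tex19.1 held them. Predicted genes named Gm with a number made up 9.07% of all genes, 14.1% of lost and 15.3% of gained promoters. Of the WT-marked among them 16.4% were lost, above the 3.50% over all genes, and of the WT-unmarked 4.26% were gained, below 6.13%.

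The lost promoters whose domains had the most reads per bin mostly had a KO domain close by. Of the 10 named by that rule, 8 had a KO domain between 2.01 and 4.17 kb away: Lenep, S1pr4, G6pc2, Gm11067, 1700017N19Rik, Gm17237, Zfp825 and Atf7. At Lenep, a lens protein gene, the WT domain covered 37.2 kb (chromosome 3, 89207201 to 89244400) with 25.003 reads per bin and the nearest KO domain was 4.17 kb from the start. No WT-only domain was longer than 30 kb, so this WT domain was shared and only its promoter part lacked a KO call. The WT domains of Gm11067 (20.8 kb) and Atf7 (21.2 kb) were shared too. They were not among the 5 longest WT-only domains, which covered 19.6 to 30 kb. The other 2, Gm3495 and Gm13540, had WT domains of a single bin with 19.4 and 19.2 reads and no KO domain within 94.2 and 54.3 kb. Of the 10 gained promoters, 7 likewise had a WT domain between 2.49 and 4.80 kb away, among them Myo1g, a myosin of blood cells, Cldn15, a tight junction claudin, and the zinc finger genes Zfp708 and Zfp169, beside BC125332, Gm10731 and Cnga4. Slfn3, of the Schlafen family, had a KO domain of 2 kb with 27.9 reads per bin (chromosome 11, 83004401 to 83006400) and no WT domain within 24.4 kb. Its promoter was also longer in KO at week 2 (5.6 kb against 0.8 kb) and was marked at week 1 in KO only (3.15 kb). In stem cells it went the other way, marked in WT only (1.3 kb). Papss2 and Gm10722 had single KO bins with 20.2 and 20 reads.

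Gene lists for the cell types of embryoid bodies were read against these shares of 3.50% lost and 6.13% gained. At the 2 kb limit the heart muscle list had the highest share of lost promoters, an order that did not hold at 1 kb (28.6%, against 33.3% of hepatic genes) or 5 kb (6.67% against 20%). Of 27 genes for contraction and conduction, 15 were marked in WT and 13 in KO, and 4 of the 15 were lost (26.7%, 10.9 to 52.0). These were Ttn, Tnni1 (slow skeletal troponin I, expressed in the embryonic heart), Casq2 (the calcium buffer calsequestrin) and Ldb3 (a Z-disc protein). Myh6 and Nppb, which encodes brain natriuretic peptide, were gained, 2 of the 12 unmarked in WT. The KO domain of Myh6 was a single bin of 0.4 kb and that of Nppb 2 kb. Another 10 members, including Myh7, Tnnt2, Actc1 and Nppa, had no week 3 promoter domain in either genotype.

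The lost cardiac domains were short and of low read count. At Ttn the domain was 2.4 kb in WT with 7.33 reads per bin, and the nearest KO domain lay 19.0 kb away. Tnni1 had 1.2 kb, Casq2 2.4 kb and Ldb3 0.8 kb, with KO domains at 4.38, 2.34 and 2.13 kb. The KO domains of Casq2 and Ldb3 lay just past the 2 kb limit, and with a limit of 5 kb, under which these and Tnni1 counted as kept, the share lost was 1 of 15. All 4 domains lay below the median read count of the WT list, and among domains above the median of read count no member of the list was lost (0 of 5, which allows a share of up to 43.4% by the Wilson interval).

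Over time the list went through a maximum in both genotypes. It was marked at 12 WT and 10 KO promoters in stem cells, at 20 and 23 at week 1, at 21 and 19 at week 2, and at 15 and 13 at week 3. Lengths at week 1 differed in both directions. The KO domains were longer at members such as Myh6 (18.55 kb against 2.8 kb), Actc1 (13.3 against 4.4 kb), Tnnt2 (7.7 against 3.2 kb) and Ttn (6.65 against 4.4 kb). They were shorter at members such as Mybpc3 (2.45 against 5.6 kb), Ryr2 (3.85 against 6.4 kb), Hcn4 (3.85 against 7.2 kb) and Atp2a2 (7 against 9.2 kb). The median over the list, with unmarked members as 0, was 4.4 kb in WT and 4.55 kb in KO. At week 3 the kept domains of Myl7 (10 kb in WT and 3.6 kb in KO), Des (4.8 and 1.6 kb), Actn2 (4.4 and 2 kb) and Hcn4 (2.4 and 0.8 kb) were shorter in KO. Tnni3 (12 and 21.6 kb) and Gja5 (6.8 and 12 kb) were longer in KO. Of the 11 kept, 5 were longer and 6 shorter in KO.

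**Figure D4:**
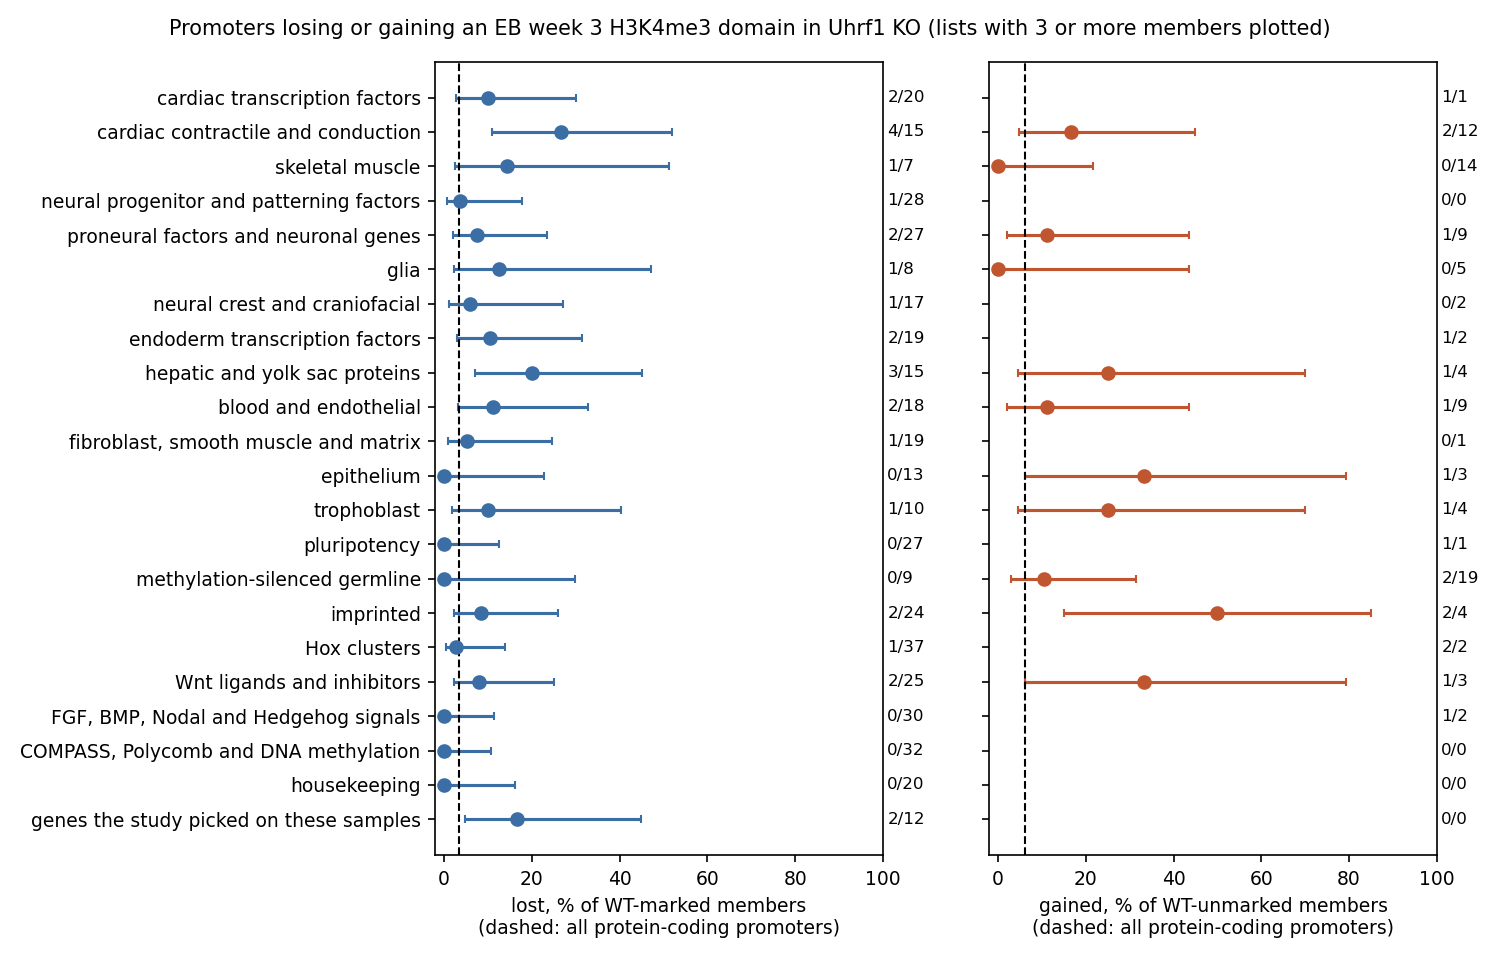
Lost promoters as a percent of WT-marked members (left) and gained promoters as a percent of WT-unmarked members (right) of each gene list, with Wilson 95% intervals and the counts at the right edge; dashed lines mark 3.50% and 6.13% over all protein-coding promoters. At the 2 kb limit plotted here, the contraction and conduction list is highest on the left, with 4 of 15 lost.

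**Figure D5:**
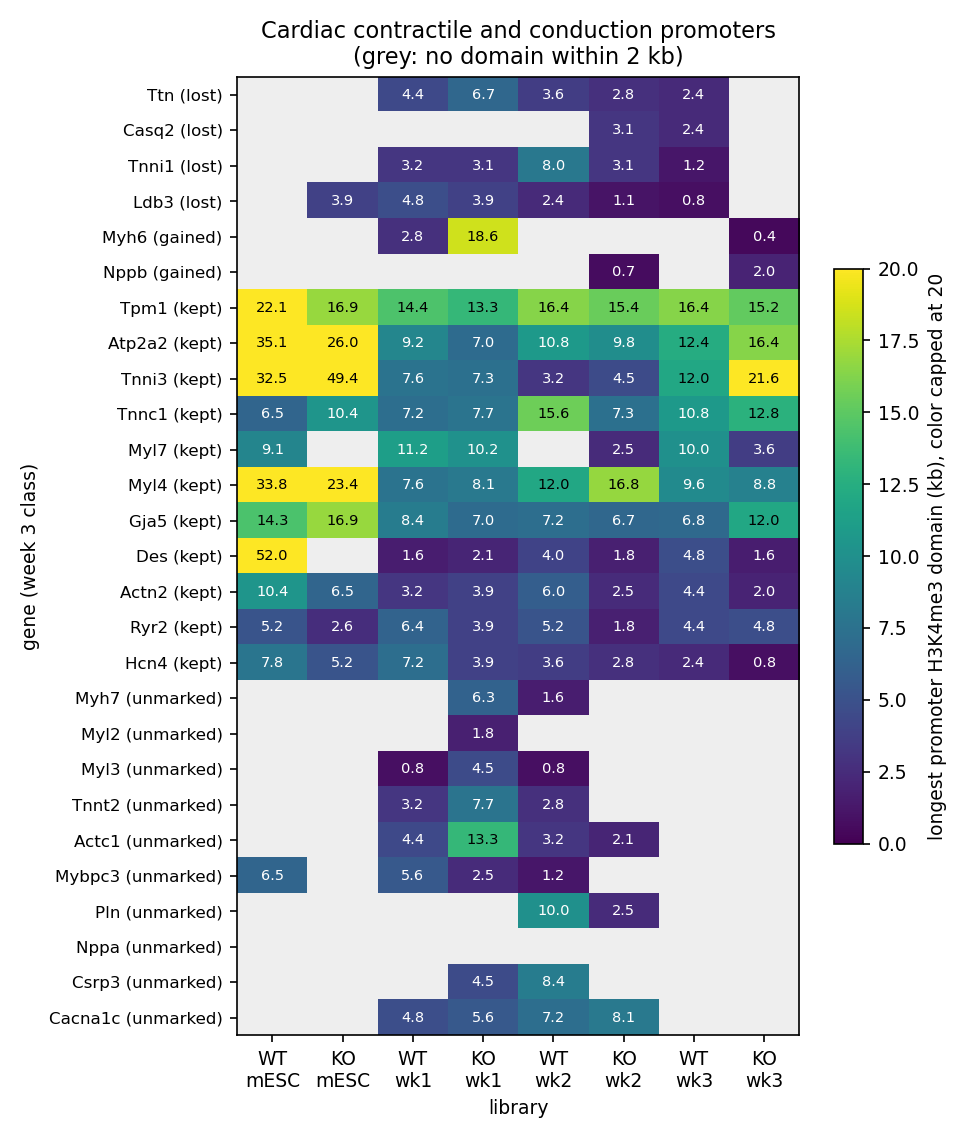
Length in kb of the longest H3K4me3 domain within 2 kb of each cardiac contraction and conduction promoter in the 8 H3K4me3 libraries (1 per genotype and stage), with genes grouped by their week 3 class and grey cells without a domain. Weeks 1 and 2 show more marked cells than week 3, where 15 WT and 13 KO promoters were marked.

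Most cardiac transcription factors kept their promoter domain. Of 20 marked in WT, 18 were kept, 8 of them longer and 5 shorter in KO, and the median log2 ratio of length was 0. Nkx2-5 (chromosome 17, 26975609 to 26978510) was one of 2 lost. Its promoter domain was 16.9 kb in WT stem cells and absent in KO, 18.4 and 19.25 kb at week 1, 18 and 2.45 kb at week 2, and 19.6 kb and absent at week 3. The WT domain was long but held only 6.27 reads per bin (percentile 1.91), and the nearest KO domain lay 4.91 kb from the start, so that this loss did not hold with a limit of 5 kb. H3K27me3 lay within 5 kb of this promoter in both genotypes. The muscle methyltransferase gene Smyd1 had 1.2 kb in WT and a KO domain 3.33 kb away. Mesp1, an early mesoderm factor, was gained with 1.6 kb in KO. Earlier it went the other way, marked in WT and not in KO in stem cells (9.1 kb) and at week 1 (5.2 kb). Among the kept, Tbx5 was 10 kb in WT and 4.8 kb in KO, Hand2 44 and 36 kb, Gata4 22 and 24.8 kb, and Hand1 6 and 9.6 kb.

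Hepatic and yolk sac genes, which mark visceral endoderm and its products in embryoid bodies, had 3 of 15 WT-marked promoters lost (20%, 7.05 to 45.2). Apob, the main apolipoprotein of secreted lipoproteins, had a 4 kb domain in WT with 9.84 reads per bin and no KO domain within 182 kb. At week 2 its promoter was likewise marked in WT (4.8 kb) and not in KO, and at week 1 it was marked in both (3.6 and 1.05 kb). Trf (transferrin) and Fga (fibrinogen alpha chain) had 2.4 and 0.8 kb in WT at week 3, were both marked at 2.4 kb in WT week 2 and in neither case in KO week 2. At week 1 Trf showed the opposite, with 2.1 kb in KO and no domain in WT, and Fga was unmarked in both. All 3 were lost with a limit of 5 kb as well, and the share was 33.3% with 1 kb, but among domains above the median of read count none of 7 was lost (which allows a share of up to 35.4% by the Wilson interval). Afp, which encodes alpha-fetoprotein, went the other way, with a single bin of 12 reads in KO 1.86 kb from the start, and had 8 kb in WT and 2.1 kb in KO at week 2. Of the 12 kept, 9 were shorter in KO, among them Amn (3.6 and 1.6 kb), Ttr (4.4 and 2 kb) and Dab2 (8.4 and 5.6 kb), against 45.9% of all kept promoters.

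Shorter domains in KO were also the larger group in lists of mesenchyme and epithelium. Of 18 kept fibroblast, smooth muscle and matrix genes 12 were shorter and 3 longer in KO, with a median log2 ratio of -0.19 against 0 over all 14689 kept promoters. Col1a1 had 20.4 kb in WT and 5.6 kb in KO, Pdgfrb 13.6 and 6 kb, Postn 6.4 and 4.4 kb and Col1a2 13.2 and 9.2 kb. The smooth muscle calponin gene Cnn1 was lost (3.6 kb in WT, KO domain 3.32 kb away). Of 13 kept epithelial genes 9 were shorter, such as Krt18 (14 and 6.4 kb), Krt7 (6.8 and 3.2 kb) and Cldn4 (23.2 and 11.2 kb), whereas Krt8 had 5.2 and 10 kb. Trp63, the master factor of stratified epithelium, was gained with 2 kb, but at week 2 had 8 kb in WT and 1.75 kb in KO. Among 17 kept endoderm transcription factors 10 were shorter and 5 longer, Mixl1 with 5.6 and 0.4 kb at one end, and Pdx1 and Nkx2-1 were lost with 5.2 and 0.8 kb in WT.

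Neural progenitor and patterning factors were the reverse. All 28 were marked in WT and 27 in KO, and 18 of the 27 kept were longer in KO and 7 shorter, with a median log2 ratio of 0.14, against 46.5% longer over all kept promoters. Dlx1 (4.8 kb in WT and 28.4 kb in KO) and its neighbor Dlx2 (5.6 and 28.4 kb) share that KO length and are not independent. Lhx2 had 6 and 12.4 kb, Nkx2-2 9.2 and 18 kb, En2 7.6 and 14.8 kb and Zic2 27.6 and 48 kb. Dlx5 was lost, with 3.6 kb in WT and a KO domain 16.1 kb away. Of 25 kept proneural factors and neuronal genes 13 were longer and 9 shorter in KO. Lhx1 (on chromosome 11) had 10 and 30 kb and Tubb3, the neuronal beta-tubulin gene (on chromosome 8), 51.6 and 9.2 kb. Dcx, of migrating neurons, and Rbfox3, which encodes NeuN, were lost with 1.2 and 1.6 kb domains in WT, and Tlx3 was gained with 1.6 kb. In stem cells and at week 1 both lists had fewer marked promoters in KO. The progenitor and patterning list was marked at 24 WT and 17 KO promoters in stem cells and at 25 and 16 at week 1. The proneural and neuronal list was marked at 27 and 18, then at 25 and 13. At week 2 the counts were 25 and 26 for the first list and 21 and 24 for the second.

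Germline genes that DNA methylation silences in somatic cells were lost nowhere and gained at 2 of 19 promoters (10.5%, 2.94 to 31.4). Hormad1, of the meiotic chromosome axis, had 2 kb in KO with 11.4 reads per bin and no promoter domain in any of the other 7 H3K4me3 libraries, with the nearest WT domain 26.0 kb away. Tex19.1, a transposon control gene of germ cells, had 4 kb in KO with 7.96 reads and lies on chromosome 11, which stood apart above. It was also marked in WT stem cells (11.7 kb) and at week 2 (2 kb in WT and 14.35 kb in KO). Of 9 kept members 8 were longer in KO, against 46.5% of all kept promoters. They included Sycp3 (1.2 and 4.4 kb) and Sycp2 (4.8 and 8 kb) of the synaptonemal complex and Dnmt3l (4 and 6.4 kb). Brdt was shorter (4.4 and 3.2 kb). The median log2 ratio was 0.36. A total of 17 members, Ddx4, Mael and Sycp1 among them, were unmarked in both genotypes.

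A stricter call, requiring a domain above the median of read count and none of the other genotype within 10 kb, left 46 lost and 67 gained promoters. The genes named from them were singled out after their values were seen, and no class of genes was counted or tested among them. The 67 held Hormad1 and, beside it, Spo11, the meiotic break enzyme (0.4 kb, 13.0 reads per bin), Fkbp6, a spermatocyte gene (0.4 kb, 14 reads), and the X-linked Tex13 (2 kb, 12 reads). They also held the X-linked Xlr (0.8 kb), Xlr3a (4.8 kb), Xlr3b (0.8 kb), Xlr3c (4 kb) and Nxf3 (2 kb). The Xlr3 genes are near-identical copies, so the reads of one may come from another. All of the X-linked genes named here were marked in KO and not in WT at weeks 1 and 2, with KO lengths of 1.05 to 2.45 kb at week 1 and 1.4 to 2.1 kb at week 2. On the Y chromosome Kdm5d and Usp9y had 2 kb each in KO and none in WT at week 3, and Usp9y was marked in KO and not in WT at every stage. The 46 lost promoters likewise held testis genes (Txndc2, Mtl5 and Speer4a), beside predicted genes, neuronal genes such as Cacna1b, Cplx2, Oprm1, Slc18a2 and Sez6l and the muscle gene Trdn.

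Pluripotency genes were all marked in KO. Of 28 genes 27 were marked in WT and none was lost. Dppa3, a germ cell and oocyte factor, was gained with 5.2 kb in KO at percentile 7.94, but at week 1 was marked in WT (6.4 kb) and not in KO. Domains of Nanog (22.4 kb in WT and 18.4 kb in KO), Pou5f1 (18.8 and 19.6 kb) and Esrrb (37.6 and 41.6 kb) were present in both genotypes at week 3, and 14 of the 27 kept were longer and 9 shorter in KO.

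Imprinted genes were lost at 2 of 24 promoters and gained at 2 of 4. Cdkn1c, a maternally expressed cell cycle inhibitor, had 4.4 kb in WT with KO domains 2.15 kb away, and Ascl2, a trophoblast factor, had 2.8 kb with none within 36.8 kb. Grb10 and Nap1l5 were gained with 4 and 3.2 kb, Grb10 with a WT domain 3.84 kb away. Dlk1 (1.6 and 9.6 kb), Plagl1 (6 and 21.2 kb) and Mkrn3 (9.6 and 20.4 kb) were longer in KO and Igf2r (17.6 and 6 kb) and Igf2 (12.4 and 6.4 kb) shorter.

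The remaining lists lost or gained at most 2 promoters each. Hox genes kept 36 of 37 WT-marked promoters. Hoxc8 was lost, with a KO domain 6.25 kb away and a WT domain of 32 kb, longer than any WT-only domain and thus shared. Hoxc11 and Hoxc12 were gained, with WT domains 3.54 and 2.39 kb away. All of these lie within 1 cluster on chromosome 15. Wnt ligands and inhibitors lost Wnt2b and Wnt10a of 25 and gained Wnt8b. Wnt2b had 9.6 kb in WT at percentile 6.22, with a KO domain 4.57 kb away, and was also unmarked in KO at week 1 and marked in both at week 2 (10.8 and 5.6 kb). Signals of the FGF, BMP, Nodal and Hedgehog families lost none of 30 and gained Fgf3. Blood and endothelial genes lost Spi1 and Emcn of 18 and gained Sox18, trophoblast genes lost Ascl2 of 10 and gained Gcm1, skeletal muscle lost Acta1 of 7 (13.2 kb in WT, on chromosome 8), glia Mog of 8, and neural crest Alx4 of 17 (6.4 kb in WT, no KO domain within 169 kb). Gsc, of the organizer, was gained with 1.6 kb, but was marked in WT and not in KO at week 1 (7.2 kb) and week 2 (4.8 kb). Over all lists 505 genes were examined and 25 were lost and 18 gained. Of the 25, 12 had a KO domain within 5 kb and only Mog had a WT domain above the median of read count. Of the 18, 6 had a WT domain within 5 kb and 5 had a KO domain above the median: Myh6, Afp, Sox18, Hormad1 and Hoxc11. These KO domains were single bins of 0.4 kb at Myh6, Afp, Sox18 and Hoxc11, and 2 kb at Hormad1.

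Genes of the machinery itself were marked in both genotypes. All 32 genes of COMPASS, Polycomb and DNA methylation and all 20 housekeeping genes kept their domains. The Uhrf1 promoter had 9.6 kb in both at week 3, with 13.2 reads per bin in WT and 11.9 in KO. In stem cells it had 76.7 and 19.5 kb, at week 1 7.2 and 3.15 kb and at week 2 8.8 and 5.25 kb. A promoter domain does not check the knockout, since where the gene is disrupted was not part of these lists. Setd1a, a COMPASS methyltransferase gene, had 19.6 and 17.2 kb. Suz12 of Polycomb repressive complex 2 (7.6 and 26 kb, on chromosome 11), Wdr5 (7.6 and 16.4 kb) and the methylcytosine dioxygenase gene Tet2 (9.2 and 49.6 kb) were longer in KO. Kmt2c (12.4 and 4.4 kb) and Tet3 (21.6 and 11.2 kb) were shorter. The study itself named 12 genes from this series, a choice that is not independent evidence of a direction. Msx2, Hand2, Tubb3, Nes, Klf2 and Sall1 were named for undifferentiated stem cells. There all of them had shorter domains in KO, such as Nes (122.2 and 39 kb), Sall1 (65 and 54.6 kb) and Klf2 (27.3 and 26 kb). Ednra, Otx2 and Neurod1 were named for H3K4me3 in EBs, and Nkx2-5, Tbx5 and Wnt2b for H3K27me3 in EBs. At week 3 Nkx2-5 and Wnt2b were lost. Of the 10 kept, 4 were longer and 5 shorter in KO, with a median log2 ratio of -0.14. Sall1 had 32.8 and 56.4 kb and Neurod1 5.6 and 9.6 kb, whereas Ednra had 15.6 and 11.6 kb and Nes 8.4 and 6.8 kb, beside the shorter Tubb3, Tbx5 and Hand2 given above. Ednra, Tubb3 and Hand2 lie on chromosome 8, which stood apart above. So do Sall1 and Klf2 (8 and 8.8 kb), which were longer in KO at week 3.

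H3K27me3 lay more often at the promoters that differed than at kept ones, but at matched length the intervals of the difference included 0 for domains of up to 3.2 kb at lost and up to 6.4 kb at gained promoters. In WT week 3 it lay within 5 kb of 55.2% of lost (50.9 to 59.3), 47.9% of gained (43.3 to 52.6) and 30.1% of kept promoters, a difference from kept of 25.05 points for lost (20.7 to 29.3) and 17.8 for gained promoters (13.1 to 22.6). Promoters unmarked in both genotypes had it at 41.3%. In KO, whose list is much shorter (3722 domains against 9488 in WT), it lay at 33.6%, 34.7% and 17.9%. The difference went with domain length: among WT domains of at most 1.6 kb, 57.3% of lost and 53.1% of kept promoters had H3K27me3 in WT (difference 4.26 points, -3.88 to 12.3), and over 1.6 and up to 3.2 kb the difference was 5.16 points (-4.13 to 14.1). Among those over 3.2 and up to 6.4 kb the shares were 61.6% and 41.1% (20.5 points, 9.82 to 30.2), and over 6.4 kb 40.4% and 23.4% (17.0 points, 7.37 to 27.4). The class over 6.4 kb included lost promoters on shared WT domains, such as that of Lenep. For gained promoters the difference from kept ones of like KO domain length was -6.11 points up to 1.6 kb (-14.2 to 2.07), -2.73 over 1.6 and up to 3.2 kb (-12.8 to 7.42), 4.52 over 3.2 and up to 6.4 kb (-6.75 to 16.2) and 20.7 above that (9.05 to 33.1), where only 62 of the 438 lay. Promoters with H3K27me3 in WT and not in KO were 24.4% of lost, 16.9% of gained and 14.7% of kept.

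The week 2 libraries, which the classes did not use, showed some of the same differences. Over all genes, 4.96% of WT-marked promoters were marked in WT alone and 6.68% of WT-unmarked promoters in KO alone at that stage. Of the 533 lost promoters, 26.8% were marked in WT and not in KO at week 2 (23.2 to 30.8), against 1.64% of kept promoters, and 7.13% showed the opposite (5.24 to 9.63). Of the 438 gained promoters, 25.3% were marked in KO and not in WT at week 2 (21.5 to 29.6), against 1.41% of kept, and 14.4% showed the opposite (11.4 to 18.0). With week 2 domains above the median of read count only, the excess over kept promoters fell from 25.2 to 2.58 points for lost (-0.12 to 5.78) and from 23.9 to 7.28 for gained promoters (4.73 to 10.5), so that for lost promoters its interval included 0. In stem cells 25.3% of lost and 21.0% of gained promoters were marked in WT and not in KO, so that share did not separate the classes. The opposite was found there at 4.32% of lost and 7.76% of gained promoters. At week 1, 19.3% of lost and 15.1% of gained promoters were marked in WT and not in KO, and 3.56% and 9.36% showed the opposite. At both of these stages gained promoters were thus more often marked in WT alone than in KO alone. At 251 lost and 288 gained promoters no earlier stage showed the same difference.

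Only 18 promoters were marked in WT and not in KO at all of the 3 earlier stages as well. Pax2, a factor of kidney, eye and midbrain development, had 37.7, 1.6, 1.2 and 3.2 kb in WT from stem cells to week 3 and no domain in KO. Prdm16, which encodes a zinc finger methyltransferase, had 5.2, 2, 4.4 and 9.2 kb in WT (chromosome 4, 153690234 to 154010982), none in KO, and a nearest KO domain 15.0 kb away at week 3. The adenosine receptor gene Adora2a, the potassium channel gene Kcnc4 and the protease gene Adam33 showed the same pattern. Only 7 promoters were marked in KO and not in WT throughout: Atp6ap1l, Cd300a, D630029K05Rik, Efcab3, Nxf3, Usp9y and Xlr3b.

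At promoters chromosome 11 stood apart and chromosome 8 did not. On chromosome 8, 3.86% of WT-marked promoters were lost (2.76 to 5.36), and 5.31% of the WT-unmarked were gained (3.06 to 9.05), with intervals that include the shares over all chromosomes. On chromosome 11, 1.53% were lost (0.982 to 2.38) and 14.8% of the WT-unmarked were gained (11.7 to 18.6), 61 of the 438, including Tex19.1, Grb10, Tlx3, Slfn3 and Myo1g. On chromosome 18, 16 of 125 WT-unmarked promoters were gained, a share with an interval of 8.03% to 19.8% that also lies above 6.13%. Gained shares had intervals below 6.13% on chromosomes 7 (3.02 to 5.61), 14 (1.93 to 5.34) and X (2.34 to 5.88). Lost shares had intervals above 3.50% on chromosomes 7 (3.54 to 5.97) and 17 (3.76 to 6.97). Without chromosomes 8 and 11 the shares were 3.67% lost and 5.61% gained.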

How the data were processed

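H3K4me3 chromatin from WT and Uhrf1 KO cells was immunoprecipitated and sequenced at 4 stages, with 1 library per genotype and stage. According to the study's methods, the authors aligned reads to mm9 with Bowtie2 (version 2.1.0) and called domains with RSEG, and deposited 1 domain list per library with no input track among the values used here. Column 5 of each deposited list is a mean read count per bin, treated as a signal whose scaling to depth is not stated, and column 6 is a deposited score used in 1 alternative only. Read depth is not given in these lists, so it bounds no value here. Uhrf1 binding was deposited as windows of 10 kb with no value. Both week 3 lists have bins of 400 bp, whereas the KO bins at weeks 1 and 2 are 350 bp and those of stem cells 1300 bp, so lengths are compared between stages as listed.

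Overlaps, gene positions (GENCODE annotation of NCBIM37) and sequences were computed in Python 3.11.15 with numpy 2.4.6, pandas 2.3.3 and scipy 1.17.1, and figures drawn with matplotlib 3.10.9. No domain ended past its chromosome in that build. The overlap and promoter calls were tested on simulated data, where 0 of 27350 domain calls and 0 of 5000 promoter calls were wrong. Genes were named by rule: the 10 lost and 10 gained promoters with the most reads per bin, the 5 longest domains of each genotype alone, the 5 largest gains and losses of length at shared promoters, the lost and gained members of 22 gene lists, the genes the study picked, and Uhrf1. Kept members given as examples, and the genes said to be singled out, were chosen after their values were seen. Of the list genes only Sox1 was not matched, and 1 planned gene of the heart muscle list is not reported here. The members and lists were chosen with earlier results of these data known. The study also classed promoters by reads over input, for which domain calls stand in here. Samples were grouped by their titles, and alternatives varied the overlap, the promoter limit, the read count minimum and the chromosomes included.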

Additional observations from a re-analysis of the deposited data

Results flagged for a closer look

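Results whose KO minus WT difference at week 3 pointed the other way at another stage are listed here; each stage has 1 library per genotype, so the difference between stages was not tested. KO had 1439 more H3K4me3 domains than WT at week 3 and 369 more at week 1, but the difference was -3763 in stem cells and -7196 at week 2. Marked promoters of the cardiac contraction and conduction list differed by -2 at week 3, by -2 at week 2 and by -2 in stem cells, but by 3 at week 1. Marked promoters of the germline list differed by 2 at week 3 and by -2 in stem cells, with no difference at weeks 1 and 2.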

How the results depend on the processing

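Of 69 alternative values of 19 results, 35 stayed within the interval of the reported value, 34 moved outside it and 0 changed direction. A change of direction meant a change of sign, so only the differences from kept promoters could show one. Shares and percentiles cannot fall below 0, and the reported breadth ratio was 0, so for these the outcome was fixed in advance. The alternatives that left out chromosomes, the use of column 6 and every setting tried for the 2 gene lists were added after the data were seen. The share of WT domains found in KO was 72.8% when 50% of the domain had to be covered, 90.04% for domains above the median of column 5, 76.6% with lists of equal number, 78.2% by base pairs, 80.9% without chromosome 8 and 80.6% without chromosomes 8 and 11. The share of KO-only domains was 30.7%, 13.1%, 23.7% and 23.6% under the first 4 of these, 23.9% without chromosome 11 and 24.1% without both. Ranked by column 6, the median percentile was 17.1 for WT-only and 19.3 for KO-only domains. Lost promoters were 9.80% with domains above the median in both lists and 0.392% when none of the other list lay within 10 kb, and gained promoters 8.31% and 1.11%. Gained promoters were 5.46% with a limit of 1 kb and 7.06% with 5 kb. For cardiac contraction and conduction genes the share lost was 6.67% with 5 kb and 0% under both median settings, and for hepatic and yolk sac genes 0% under both. At promoters with a 5 kb limit lay 19.6% of WT-only and 15.9% of KO-only domains, and 14.3% of WT-only domains without chromosomes 8 and 11. With H3K27me3 domains above the median, lost minus kept was 16.1 points in WT and 5.73 in KO, and gained minus kept 8.41 and 10.4. With week 2 domains above the median, the excess over kept promoters was 2.58 points for lost (-0.12 to 5.78) and 7.28 for gained promoters. Causes were not tested, though the stricter settings count fewer domains. No paired analysis was possible because each genotype has 1 library at week 3. The domain lists give no depth, so a missing domain is one that was not called.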

Other observations

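Other gene families were grouped by their symbols, a grouping made after the lists were seen. Olfactory receptors, which are silent outside sensory neurons, were almost all unmarked at week 3: 8 of 1113 were marked in WT, of which 3 were lost, and 10 of the 1105 unmarked in WT were gained (0.905%, against 6.13% over all promoters). Vomeronasal receptors were similar, with 3 of 328 marked in WT and 4 gained. Zfp zinc finger genes were mostly kept, with 4 of 327 WT-marked promoters lost (1.22%, against 3.50%). These families contain similar copies, so single members are uncertain.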
